A study of Ovis aries with 16 samples.

Results

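The comparison concerned the small RNAs carried by extracellular vesicles (EVs) in the serum of sheep, after and before a Fontan operation. All 8 EV libraries among the 16 libraries of the series were used, chosen by their titles: 3 taken after surgery (letters D, E and F) and 5 taken before it (letters A, B, C, D and E). Adolescent sheep with otherwise normal biventricular hearts were operated in a single stage, so the model holds the altered venous return without a malformed heart. The D library after surgery was labelled day 6 and the E and F libraries day 7, and the libraries before surgery were labelled as controls. Letters D and E occur at both times and are read here as the same animals, whereas F has an EV library after surgery only and A, B and C before surgery only. No group of operated animals without a Fontan connection was compared, so the operation itself and the new circulation cannot be told apart.

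MicroRNAs (miRNAs) are short RNAs that guide Argonaute proteins to messenger RNAs and lower the output of these. Blood cells, platelets, endothelium and solid organs release EVs, membrane vesicles that protect the miRNAs inside them, and the miRNA makeup of serum EVs depends on which cells released them. The Fontan operation, the last step in the surgical treatment of single-ventricle hearts, leads the caval blood straight into the pulmonary arteries. It raises central venous pressure, and the liver is the organ best known for chronic congestion afterwards. The liver-enriched miR-122-5p and the red-cell miRNAs miR-486-5p, miR-451a and miR-16-5p are therefore natural names to read first in such a comparison.

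The table held counts for 1105 names, of which 1075 were mature miRNA names and 30 were names of PIWI-interacting RNAs (piRNAs). Names and build are human (hg19), and only 103 of the 1075 miRNA names have a sheep miRNA gene of the same stem in the RefSeq annotation ARS-UI_Ramb_v3.0, which lists few of them; a name can therefore stand for a related sheep RNA or for a fragment that matches it. Total counts were 473978, 160079 and 92810 in D, E and F after surgery, against 67882, 65537, 567514, 276696 and 85449 in A to E before surgery. Neither the totals (exact permutation test, 2-sided p = 0.821, adjusted 0.821 over 6 measures) nor the number of names above 0 (836 ± 69.4 after, SD, n = 3, against 892 ± 123 before, SD, n = 5; exact p = 0.464, adjusted 0.557) differed beyond the spread. With 3 libraries against 5 there are 56 splits and the smallest 2-sided exact p is 0.0357.

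The 8 libraries formed 2 sets that do not follow surgery. E and F after surgery and A, B and E before surgery had nearly the same zeros: 292 names were at 0 in all 5 of them, and the correlation of their zeros (phi) was at least 0.916 for each pair. Of those 292 names, 202 were above 0 in D after surgery, 244 in C before surgery and 260 in D before surgery. Spearman's rho of log2 CPM (counts scaled to a common library size) ran between 0.740 and 0.830 within these 3 libraries, between 0.511 and 0.701 within the 5, and between 0.241 and 0.476 across the sets. The smallest count above 0 was 10 in D after surgery and 10 and 6 in C and D before surgery, against 1 in each of the 5 libraries, so a 0 or a low count does not mean the same in both sets. Whether the sets were counted or filtered separately is not given in the labels. Both times are present in both sets. The only library after surgery in the smaller set is D. Both D libraries are in the smaller set and both E libraries in the larger. A difference between the changes in D and in E therefore cannot be told apart from a difference between the sets. Fits without D, or within a set, are therefore given for several names on which that library weighs. Values of lists are not given without D.

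A few miRNAs held a large part of each EV library. The 20 names with the largest mean share held 71.5, 68.2 and 51.5% of the counts after surgery, against 38.7, 54.2, 68.7, 48.8 and 45.4% before surgery. The share of the 10 most abundant names of each library averaged 57.9 ± 10.5% after surgery (SD, n = 3) and 44.8 ± 11.7% before surgery (SD, n = 5), a difference of 13.1 percentage points that was not past the spread (exact permutation test, 2-sided p = 0.179, adjusted 0.557). The effective number of names, the number of equally abundant names that would give the same diversity, was 77.7 ± 47.4 after surgery and 143 ± 78.8 before surgery (exact p = 0.321, adjusted 0.557).

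**Figure D1:**
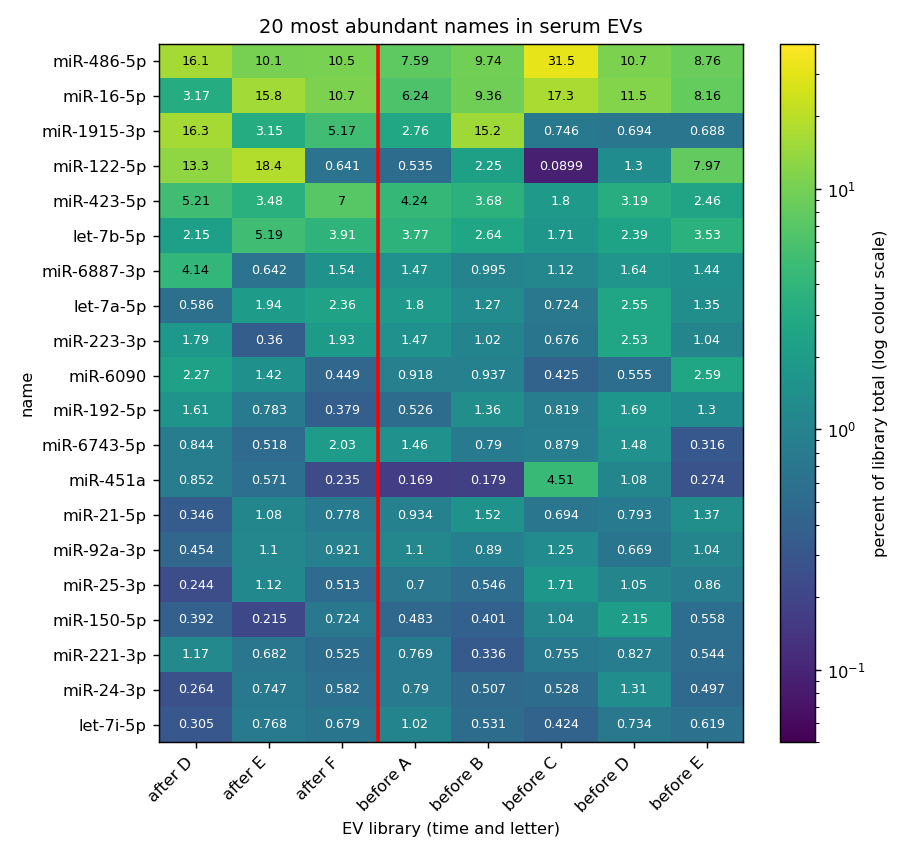
Share of the library total, in percent, of the 20 most abundant names (rows) in the 3 EV libraries after surgery (left of the line) and the 5 before surgery (right of it), on a log colour scale. miR-122-5p makes up 13.3 and 18.4% of D and E after surgery, and miR-486-5p 31.5% of C before surgery.

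No name passed the test of the difference across all EV libraries. Of 856 names with enough counts, 0 (0%) had an adjusted p under 0.05 in edgeR's quasi-likelihood test with Benjamini-Hochberg adjustment, where the smallest adjusted p was 0.999. At an unadjusted p under 0.05 there were 15 names (1.75%), 12 higher (1.4%) and 3 lower (0.35%) after surgery. DESeq2 and limma-voom also called 0 names after adjustment, with 38 and 18 names at an unadjusted p under 0.05. The direction of the small differences depended on the scaling. TMM factors (trimmed mean of M values), which centre the middle of the names, gave a median log2 fold change of -0.02, whereas dividing by library totals gave -0.55, with 195 of 856 names above 0 in place of 415. Under library totals the names at an unadjusted p under 0.05 were 1 higher and 20 lower, and only 1 of the 15 above was among them. Directions below are therefore given relative to the middle of the names unless a share of the total is stated.

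**Figure D2:**
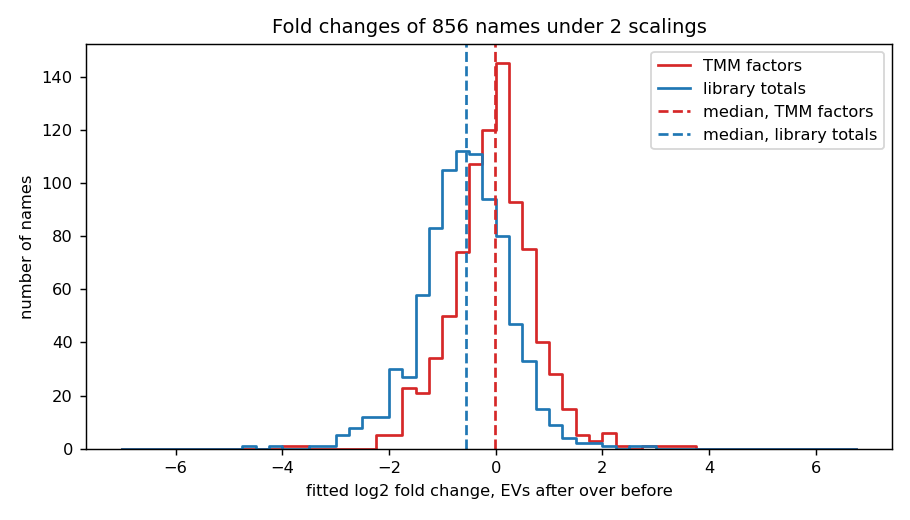
Histogram of fitted edgeR log2 fold changes, EVs after over before surgery, for 856 names in steps of 0.25, with TMM factors (red) or library totals (blue); dashed lines are the medians. The whole distribution lies lower with library totals, with medians of -0.02 and -0.55.

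The most abundant liver miRNA, miR-122-5p, had the largest difference in mean share between the times among the 20 most abundant names, and it varied widely between sheep. It made up 13.3, 18.4 and 0.641% of the counts in D, E and F after surgery, against 0.535, 2.25, 0.0899, 1.30 and 7.97% in A to E before surgery. D and E after surgery lay above all 5 libraries before surgery, whereas F after surgery lay among them. The mean share was 10.8 ± 9.16% after surgery (SD, n = 3) and 2.43 ± 3.20% before surgery (SD, n = 5), and edgeR's fitted log2 fold change was 3.32 (SE 1.23, unadjusted p = 0.0213, adjusted p = 0.999). Within the letters, miR-122-5p was higher after surgery by 4.26 (D) and 2.24 (E) on the log2 scale of TMM-scaled CPM. Its share was higher by 12.0 and 10.5 percentage points. Leaving out single libraries gave fold changes between 2.79 and 4.21, and the 5 libraries with shared zeros alone gave 2.29.

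Other liver-enriched names gave mixed values. Of the 5 liver names tested, 3 were higher and 2 lower after surgery by sign, with a median log2 fold change of 0.48, beside -0.02 for all names tested. miR-192-5p, shared by liver and gut, had shares of 1.61, 0.783 and 0.379% after surgery, against 0.526 to 1.69% before surgery. F after surgery lay below that range and the other 2 within it, and within the letters it differed by 0.84 (D) and 0.30 (E) on the log2 scale. miR-148a-3p, another abundant hepatocyte miRNA, differed within the letters by -0.09 (D) and 1.45 (E) on the log2 scale, and miR-194-5p, which is made from clusters shared with miR-192, by -0.95 and 0.56. In TMM-scaled CPM all 5 liver names were higher after surgery in E, and 2 of 5 in D. In shares of the total, miR-122-5p and miR-148a-3p were higher in E and the other liver names lower. In D only miR-122-5p had a higher share. The share of miR-192-5p, for example, differed by -0.084 (D) and -0.51 (E) percentage points.

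In total serum of the same series, miR-122-5p made up 3.02, 1.24 and 5.96% of counts in D, E and F after surgery, against a median of 0.484% and a highest value of 6.15%, in B, before surgery. Serum F thus had the largest of its after-surgery values while EVs of F had the smallest. The EV change minus the serum change of miR-122-5p was 2.39 on the log2 scale (SE 1.98, edgeR's quasi-likelihood test, adjusted p = 1.00). Across names, 0 of 1018 had a change in EVs that differed from that in serum at an adjusted p under 0.05 in edgeR (0%), with 85 (8.35%) at an unadjusted p under 0.05. DESeq2 called 3 (0.295%), which were miR-211-3p, miR-4463 and miR-617. Their edgeR adjusted p were 0.414, 0.695 and 0.414, and all 3 had counts of 0 in several libraries. miR-617, for example, had 47, 34 and 45 counts in EVs after surgery, against 7, 13, 60, 30 and 27 before surgery, and 0 in all 3 serum libraries after surgery.

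miR-1915-3p, a GC-rich name whose role in sheep is not established, had the largest within-letter difference shared by D and E on the log2 scale of TMM-scaled CPM. It held 16.3, 3.15 and 5.17% of the counts in D, E and F after surgery, against 2.76, 15.2, 0.746, 0.694 and 0.688% in A to E before surgery. All 3 libraries after surgery lay above 4 of the 5 before surgery, and B before surgery lay far above those 4. Within the letters it was higher after surgery by 5.46 (D) and 3.22 (E) on the log2 scale. The fit over all 8 libraries gave a log2 fold change of 2.12 (SE 1.16, edgeR unadjusted p = 0.0940, adjusted p = 0.999), and with the letter as a block it was 4.35 (SE 1.09, adjusted p = 0.0575, the smallest of that fit). Without D after surgery the value was 0.28, without B before surgery 3.78, and in the 5 libraries with shared zeros -0.26.

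miR-423-5p, a broadly expressed miRNA that has been studied in human plasma in heart failure, separated the times on 1 scale only. Its shares were 5.21, 3.48 and 6.998% in D, E and F after surgery, against 4.24, 3.68, 1.80, 3.19 and 2.46% in A to E before surgery, where E after surgery lay within the range before surgery. In TMM-scaled CPM it had 107974, 43026 and 53604 after surgery, all above the 22529, 28810, 33214, 35211 and 14840 before surgery. The fitted log2 fold change was 1.34 (SE 0.592, edgeR unadjusted p = 0.0454, adjusted p = 0.999). It was higher within D by 1.62 and within E by 1.54, and the fitted value stayed between 0.81 and 1.54 when single libraries were left out, with the lowest value without D after surgery.

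**Figure D3:**
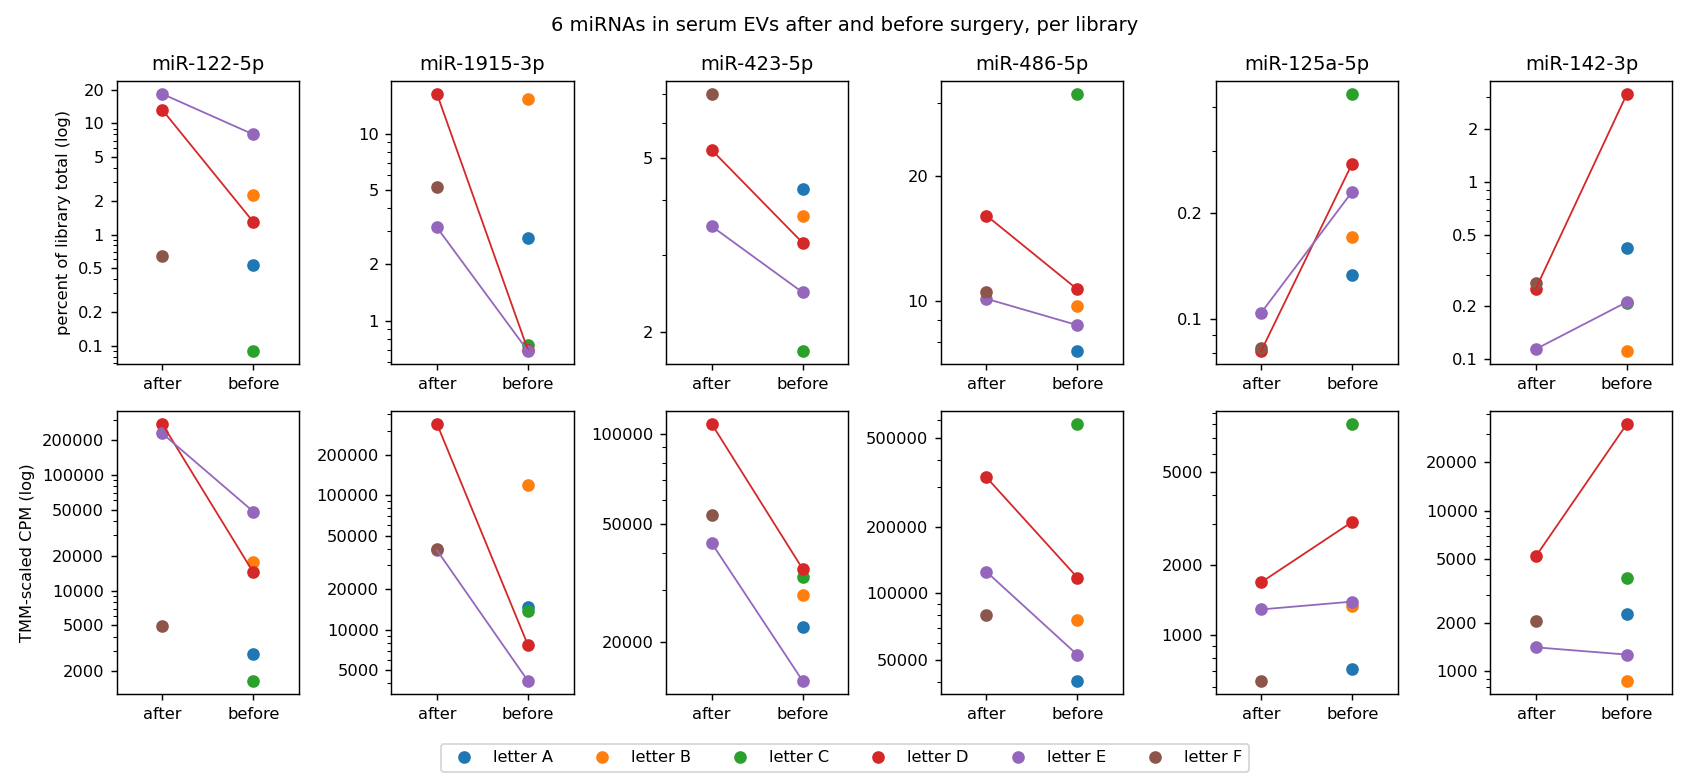
Share of the library total (upper row, percent, log axis) and TMM-scaled CPM (lower row, log axis) of 6 miRNAs in each EV library after (left) and before (right) surgery, with 1 point per library coloured by letter and lines joining D and E across the times. miR-423-5p separates the times in TMM-scaled CPM and miR-125a-5p in shares, and neither does so on the other scale.

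The red-cell miRNAs, which erythrocytes hold in large amounts and shed in EVs, varied widely within the libraries of 1 time. miR-486-5p made up 16.1, 10.1 and 10.5% of the counts after surgery, against 7.59, 9.74, 31.5, 10.7 and 8.76% before surgery, with C before surgery alone above the rest. miR-16-5p had 3.17, 15.8 and 10.7% after surgery, against 6.24, 9.36, 17.3, 11.5 and 8.16% before surgery. These 2 names differed in direction in D, where miR-486-5p was higher after surgery by 5.39 percentage points and miR-16-5p differed by -8.29. In E both were higher, by 1.38 and 7.66 percentage points. Together the 8 red-cell names in the table held 21.5, 29.1 and 23.3% after surgery, against 16.1, 21.1, 57.5, 25.5 and 19.4% before surgery. Of these, 3 were higher and 5 lower by sign, with a median log2 fold change of -0.32, and 0 of 8 passed the test. Leaving the red-cell names out of the totals and the test also left 0 names called, with 14 at an unadjusted p under 0.05.

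Several markers of nucleated blood cells and platelets, though not all, were highest in 1 library, D before surgery. miR-142-3p, specific to blood-forming cells, made up 0.251, 0.114 and 0.269% of counts after surgery, against 0.427, 0.111, 0.207, 3.14 and 0.211% before surgery. The endothelial and platelet miR-126-3p had 0.0357, 0.610 and 0.198% after surgery, against 0.526, 0.182, 0.158, 2.13 and 0.544% before surgery. In both cases the D library before surgery stood above the other 7, which otherwise overlapped. Within D these names differed by -2.74 and -4.97 on the log2 scale, after minus before surgery, while in E they differed by 0.15 and 1.20. miR-150-5p, a marker of mature lymphocytes, had 0.392, 0.215 and 0.724% after surgery, against 0.401 to 2.15% before surgery, with the highest value again in D before surgery. Other listed names did not peak there. miR-223-5p had 0.129% in D before surgery and 0.176% in E before surgery. miR-197-3p had 0.297% in D before surgery and 0.506% in F after surgery.

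By list, the same library carried the larger blood-cell values. Platelet names summed to 2.71, 3.005 and 3.77% after surgery, against 2.53 to 7.54% before surgery. Myeloid names summed to 2.23, 0.688 and 2.63% after surgery, against 1.46 to 6.48% before surgery, and lymphoid names to 0.779, 0.517 and 1.26% after surgery, against 1.07 to 3.49% before surgery. The highest value of each range belongs to D before surgery. In these lists 0 of 9, 0 of 4 and 0 of 5 tested names passed the test, and the median log2 fold changes were -0.05, -0.44 and -0.64. Since an EV preparation mixes sources, fewer vesicles of a source and less of an RNA per vesicle cannot be told apart.

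**Figure D4:**
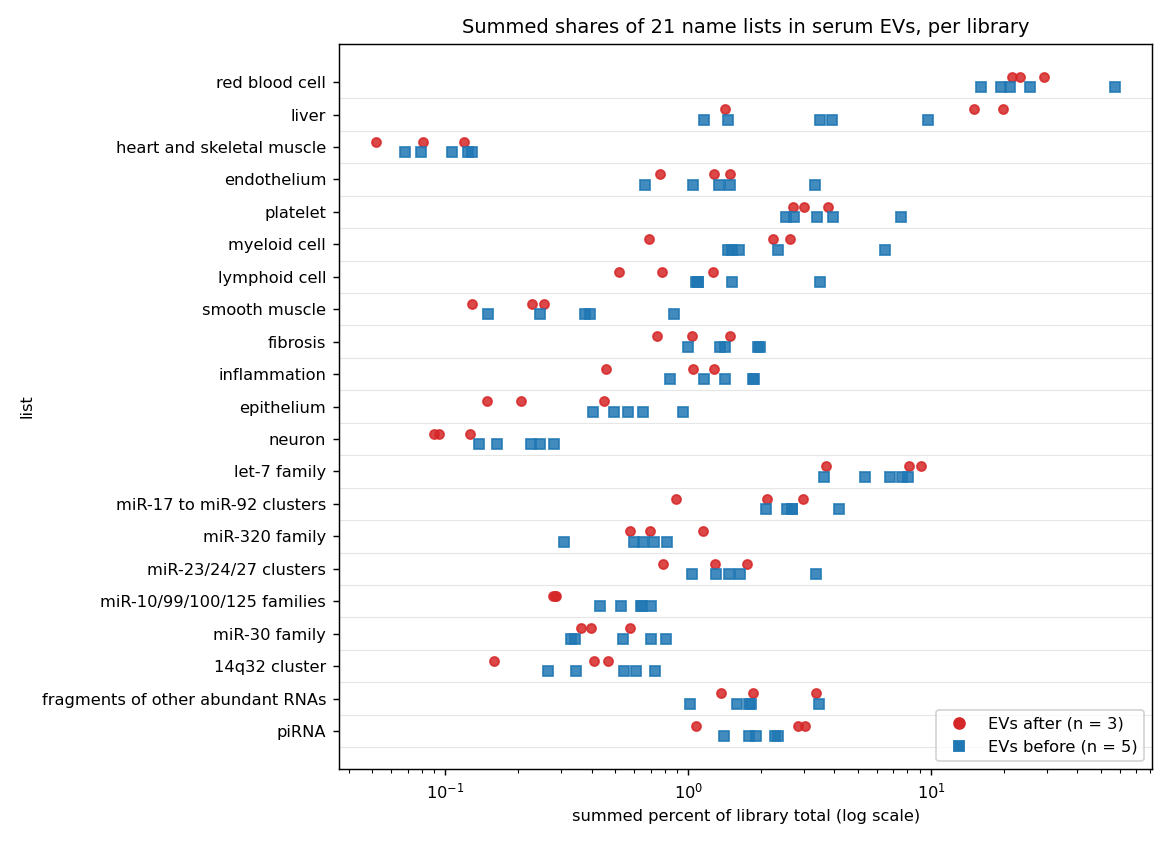
Summed share of the library total, in percent on a log axis, of 21 lists of names (rows) in the 3 EV libraries after surgery (red circles, upper in each row) and the 5 before surgery (blue squares, lower in each row). The groups do not overlap for the families of miR-10, miR-99, miR-100 and miR-125 and for neuron names, and overlap for the other 19 lists.

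Among 21 lists of names, summed shares of 2 (9.52%) were lower in all libraries after surgery than in all before surgery, and 0 (0%) were higher. The families of miR-10, miR-99, miR-100 and miR-125, of which the last 3 lie beside let-7 genes in mammalian genomes, summed to 0.276, 0.282 and 0.287% after surgery, against 0.530, 0.432, 0.647, 0.637 and 0.700% before surgery. Values after surgery were close together, with means of 0.282 ± 0.00514% after surgery (SD, n = 3) and 0.589 ± 0.107% before surgery (SD, n = 5). miR-125a-5p and miR-125b-5p carried most of it: miR-125a-5p had 0.0812, 0.104 and 0.0830% after surgery, against 0.134, 0.171, 0.437, 0.277 and 0.231% before surgery. The 7 tested names had a median log2 fold change of -0.30 under TMM factors, beside -0.02 for all names tested, and of -0.65 under library totals, beside -0.55 for all. By sign 2 of the 7 were higher and 5 lower. In TMM-scaled CPM the groups overlapped, as they did for all 21 lists (0 higher, 0%; 0 lower, 0%).

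The other separated list was that of neuron-enriched names, of which 4 were in the table. They summed to 0.0941, 0.127 and 0.0894% after surgery, against 0.163, 0.137, 0.226, 0.245 and 0.280% before surgery. miR-128-3p, the most abundant of them, overlapped between the times, with 0.0802, 0.104 and 0.0485% after surgery, against 0.0884, 0.127, 0.205, 0.195 and 0.111% before surgery. None of the 3 tested names passed the test, and the median log2 fold change was -0.54 (-1.16 under library totals).

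The let-7, miR-17 to miR-92, miR-23/24/27 and miR-30 groups were among the lists whose median differed in sign between D and E in TMM-scaled CPM. The let-7 miRNAs, which hold back growth genes and are among the most abundant miRNAs of serum, were higher after surgery in 9 of 9 names in E and in 3 of 9 in D. Their median log2 differences were 1.56 and -0.35, and let-7b-5p, the most abundant, was higher in both (0.76 in D, 1.59 in E). The miR-17 to miR-92 group, known for driving proliferation, was higher in 7 of 9 names in E and 1 of 9 in D. For the miR-23/24/27 group it was 5 of 5 in E and 0 of 5 in D. In the miR-30 family 1 of 4 was higher in D. In E, miR-30a-5p, miR-30d-5p and miR-30e-5p were higher, and miR-30c-5p was at 0 counts at both times. For all 856 names, the median log2 difference was 0 in E and -0.13 in D. Names at 0 counts in both libraries of a letter enter these medians as 0. In summed shares the let-7, miR-17 to miR-92 and miR-23/24/27 groups were lower in D and higher in E after surgery. The miR-30 family was lower in both, with 0.577% after and 0.809% before in D, and 0.399% and 0.541% in E. Single names could differ from their group, as let-7f-5p, miR-23a-3p and miR-23b-3p had lower shares in E. The share of let-7b-5p differed by -0.24 (D) and 1.65 (E) percentage points. Over all 8 libraries the let-7 names had a median log2 fold change of 0.30 (8 of 9 above 0) and the miR-17 to miR-92 names of -0.56 (1 of 9 above 0), with 0 of 9 passing the test in each.

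The miR-320 family, which is made without Drosha cleavage, was higher after surgery in most names of both letters in TMM-scaled CPM. Its names were higher after surgery in 4 of 5 cases in D and 5 of 5 in E, with a median fitted log2 fold change of 0.91, and of 0.45 under library totals. miR-320b made up 0.211, 0.457 and 0.191% of counts after surgery, against 0.192, 0.168, 0.0546, 0.192 and 0.225% before surgery, with E after surgery alone clearly above. Its fitted log2 fold change of 1.49 (SE 0.628) had an edgeR unadjusted p of 0.0379 and an adjusted p of 0.999. The summed share of the family was 0.694, 1.15 and 0.577% after surgery, against 0.308 to 0.816% before surgery, so the times overlapped. Within D the summed share was 0.694% after surgery and 0.816% before surgery, and within E 1.15% after surgery and 0.723% before surgery, so on this scale the letters differed in direction.

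No tested name of the heart, skeletal muscle or smooth muscle lists passed the test. Heart and skeletal muscle names summed to 0.120, 0.0812 and 0.0517% after surgery, against 0.0679 to 0.128% before surgery. The muscle miRNAs miR-1-3p and miR-133a-3p were at 0 in the 5 libraries with shared zeros, so no level after surgery could be read for E and F; in D, miR-133a-3p had 0.0551% after surgery and 0.0267% before surgery. Of the 3 muscle names tested 3 were above 0, with a median log2 fold change of 0.31 (-0.21 under library totals). For the smooth muscle pair, miR-143-3p had 0.0557, 0.158 and 0.0474% after surgery, against 0.106 to 0.705% before surgery, and miR-145-5p had 0.172, 0.0962 and 0.0808% after surgery, against 0.0442 to 0.246% before surgery.

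Names linked to fibrosis and inflammation held lower shares on average but overlapped, and most names tested had lower shares. Under library totals the median log2 fold changes of these lists were -0.57 and -0.65, beside -0.55 for all names tested. Fibrosis names, among them the miR-29 family that targets collagen messages, summed to 1.09 ± 0.376% after surgery (SD, n = 3) and 1.54 ± 0.419% before surgery (SD, n = 5), with 3 of 6 tested names above 0 and a median log2 fold change of -0.02. Inflammation names, such as the NF-kB-induced miR-155-5p and miR-146a-5p, summed to 0.927 ± 0.423% after surgery and 1.43 ± 0.442% before surgery, with 1 of 5 above 0 and a median of -0.36. miR-21-5p, which is on both lists, made up 0.346, 1.08 and 0.778% after surgery, against 0.694 to 1.52% before surgery. Endothelial names summed to 1.28, 1.48 and 0.765% after surgery, against 0.664 to 3.34% before surgery, with 2 of 4 above 0 and a median of -0.35.

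Epithelial names were below 0 in 4 of 4 tested cases. miR-203a-3p, abundant in skin and other stratified epithelia, made up 0.0257, 0.308 and 0.0970% after surgery, against 0.491, 0.369, 0.227, 0.0824 and 0.630% before surgery. The list summed to 0.149, 0.449 and 0.206% after surgery, against 0.407 to 0.956% before surgery, where only E after surgery reached the range before surgery. The median log2 fold change was -0.64 (-1.14 under library totals), and 0 of 4 passed the test. For the miR-30 family the summed share was 0.577, 0.399 and 0.362% after surgery, against 0.328 to 0.809% before surgery. The imprinted DLK1-DIO3 cluster, listed with 46 names, was summed over 21 names. These held 0.159, 0.410 and 0.469% after surgery, against 0.265 to 0.732% before surgery, with 4 of 13 tested names above 0. The cluster member miR-409-3p was also in the table, on rows that share its name. Those rows were left out of the sum and of the 13 tested names.

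Among the 12 names higher at an unadjusted p under 0.05, piRNA names had the 2 smallest p. piRNAs guide PIWI proteins in the germ line, and names of this class in serum can also match fragments of transfer RNA and other abundant RNAs. piR_017723, with the smallest p, had 1040, 45 and 35 counts in D, E and F after surgery, against 22, 20, 87, 84 and 25 in A to E before surgery. As shares of the total these were 0.219, 0.0281 and 0.0377% after surgery, against 0.0153 to 0.0324% before surgery, so that D after surgery alone stood far above. The fitted log2 fold change was 2.84 (SE 0.856, edgeR unadjusted p = 0.00720, adjusted p = 0.999), and 0.36 without D after surgery. piR_001312, the next piRNA name, had 0.736, 0.182 and 0.329% after surgery, against 0.245, 0.223, 0.0733, 0.120 and 0.276% before surgery. Its fitted log2 fold change of 2.18 became 0.65 without D after surgery and 0.55 in the 5 libraries with shared zeros. piR_018570 and piR_017724, also among these 12 names, rested less on D. Their log2 fold changes of 1.61 and 2.22 became 1.19 and 1.24 without D after surgery, and 1.05 and 1.60 in the 5 libraries. As a class, piRNA names held 3.04, 1.08 and 2.84% of counts after surgery, against 1.40 to 2.35% before surgery, and 10 of 16 tested names were above 0, with a median log2 fold change of 0.61 (0.05 under library totals).

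Several of the higher miRNA names rested on 1 library. miR-3154 had 40, 256 and 14 counts after surgery, against 25, 13, 36, 23 and 25 before surgery, and its log2 fold change of 2.36 (SE 0.820) became -0.06 without E after surgery. miR-4280 had 0, 186 and 4 counts after surgery, against 4 to 16 before surgery, again with E after surgery alone high. By contrast, miR-671-5p had 809, 710 and 677 TMM-scaled CPM after surgery, against 78.3, 95.4, 289, 315 and 445 before surgery, without overlap; its log2 fold change was 1.57 (SE 0.587, edgeR unadjusted p = 0.0223, adjusted p = 0.999). In shares it overlapped, with 0.0390, 0.0575 and 0.0884% after surgery, against 0.0122 to 0.0737% before surgery. miR-127-3p of the DLK1-DIO3 cluster had 302, 926 and 272 TMM-scaled CPM after surgery, against 141, 95.4, 285, 148 and 35.3 before surgery, where F after surgery lay just under C before surgery.

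The 3 names lower at an unadjusted p under 0.05 were all of low count. miR-3609 had 92, 69 and 173 TMM-scaled CPM after surgery, against 204, 465, 217, 231 and 353 before surgery, with no overlap and a log2 fold change of -1.39 (SE 0.568, edgeR unadjusted p = 0.0327, adjusted p = 0.999). miR-4454, a name that can match transfer RNA fragments, had 83, 100 and 124 TMM-scaled CPM after surgery, against 133, 119, 305, 814 and 212 before surgery. Its groups overlapped by a narrow margin. miR-3200-3p had 19, 16 and 12 counts after surgery, against 49, 20, 48, 45 and 41 before surgery, and 83, 123 and 99 TMM-scaled CPM after surgery, against 384, 239, 156, 179 and 290 before surgery, without overlap. The log2 fold changes were -1.64 for miR-4454 (SE 0.730) and -1.29 for miR-3200-3p (SE 0.580). That of miR-4454 became -0.96 without D before surgery and -0.53 in the 5 libraries with shared zeros.

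Complete separation of the times was rare and depended on the scale. In shares of the total, 0 of 856 names (0%) were higher and 17 (1.99%) lower in all 3 libraries after surgery than in all 5 before. In TMM-scaled CPM, 8 (0.935%) were higher and 9 (1.05%) lower. Beside miR-125a-5p, the names lower in shares included the miR-17 relatives miR-19b-3p and miR-106b-5p. miR-19b-3p had 0.0171, 0.0344 and 0.0345% after surgery, against 0.0678, 0.0565, 0.105, 0.0813 and 0.0398% before surgery, and miR-106b-5p had 0.0148, 0.0275 and 0.0323% after surgery, against 0.0437 to 0.0824% before surgery. These 17 names together held 0.276, 0.320 and 0.280% of the counts after surgery, against 0.771 to 1.09% before surgery. The 8 higher in TMM-scaled CPM were miR-423-5p, piR_001312, piR_018570, miR-671-5p, miR-193b-5p, miR-1914-3p, miR-617 and miR-4687-3p.

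A single name, miR-3934-3p (0.117%), did not overlap on either scale. It had counts of 0, 4 and 0 after surgery and of 50, 4, 16, 44 and 16 before surgery. The nearest pair was E after surgery (0.00250%) and C before surgery (0.00282%) in shares, and E after surgery and B before surgery, with 4 counts each, in TMM-scaled CPM. D after surgery holds no count from 1 to 9 for any name, so how many counts its 0 can stand for is not known. The fitted log2 fold change of -3.88 (SE 1.83, edgeR unadjusted p = 0.0587, adjusted p = 0.999) depends on the handling of those zeros.

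For D and E, sampled at both times, the names that the letters shared depended on the scale. Of 830 names with a mean of at least 100 TMM-scaled CPM over these 4 libraries, 120 (14.5%) were at least 2-fold higher and 173 (20.8%) at least 2-fold lower after surgery in D, and 171 (20.6%) higher and 145 (17.5%) lower in E. On this scale 22 (2.65%) were higher in both and 14 (1.69%) lower in both, while 77 (9.28%) differed at least 2-fold in opposite directions. Across the 830 names Pearson's r between the D and E changes was -0.12, a description over names that share the same 4 libraries. Names at 0 counts in both E libraries, such as miR-4532 and miR-133a-3p, stay among the 830 with an E change of 0. Some large decreases in D are counts of 0 after surgery, as for miR-146b-5p (71 before, 0 after). The shares and r thus rest in part on names that were not measured in a library. Scaled by library totals instead, 4 of 808 names were at least 2-fold higher in both, 165 lower in both and 42 opposite. With 1 library per letter and time, no test of a single animal is possible, and differences between D and E cannot be told apart from those between the library sets. In shares of the total the median log2 change was -0.99 in D and -1.07 in E, so the middle name held a smaller share after surgery in both, beside the larger shares of miR-122-5p and miR-1915-3p.

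**Figure D5:**
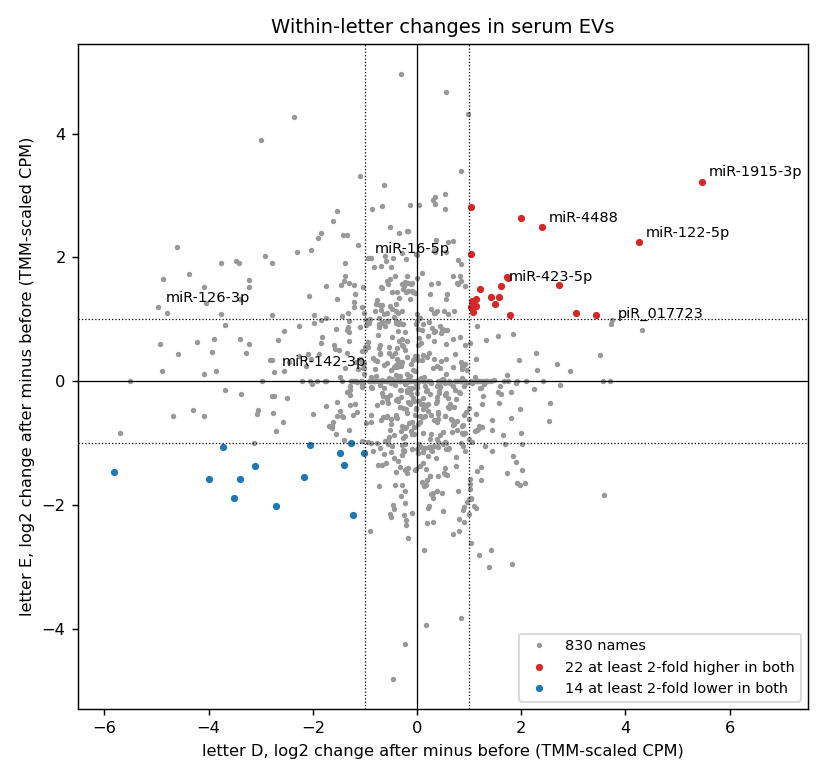
Log2 change in TMM-scaled CPM, after minus before surgery, in letter D (x axis) and letter E (y axis), 1 point per name for 830 names, with dotted lines at 2-fold. The 22 names higher in both letters (red) reach farthest for miR-1915-3p and miR-122-5p, the 14 lower in both are blue, and miR-126-3p and miR-16-5p lie where the letters differ in sign.

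Of the names at least 2-fold higher in both letters, the 8 with the largest smaller change were miR-1915-3p, miR-4488, miR-122-5p, miR-196b-3p, miR-625-3p, miR-486-3p, miR-375 and miR-423-5p. miR-375, known from pancreatic islets and gut epithelium, made up 0.980, 0.634 and 0.370% after surgery, against 0.368, 0.919, 0.0937, 0.277 and 0.440% before surgery. It was higher by 2.73 in D and 1.56 in E, whereas B before surgery, a letter with no EV library after surgery, exceeded E and F after surgery. miR-486-3p, the partner strand of the red-cell miR-486-5p, was higher by 1.75 in D and 1.67 in E, but over all 8 libraries its log2 fold change was 0.31 (SE 1.02), with 1.06% of counts in C before surgery. miR-4488, a name that can match ribosomal RNA fragments, was higher by 2.39 and 2.49.

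Of the 14 names at least 2-fold lower in both letters, those with the largest smaller difference were miR-5580-3p, miR-301b-3p, miR-6823-3p, miR-6811-3p, miR-6716-3p, miR-6828-3p, miR-4659b-3p and miR-4317. Counts in the 3 libraries after surgery ran up to 118 (miR-4317 in F), and 5 of the 8 names were at 0 in D after surgery: miR-5580-3p, miR-301b-3p, miR-6811-3p, miR-6828-3p and miR-4659b-3p. miR-301b-3p, for example, had 0, 12 and 11 counts after surgery, against 28, 13, 26, 30 and 53 before surgery. miR-5580-3p was not among the 856 names tested. F after surgery did not follow D and E for miR-4317, with 0.127% of counts, against 0.0218 to 0.115% before surgery.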

How the data were processed

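Per the labels' protocols, EVs between 70 and 1000 nm in size were separated by size exclusion from serum spun at 300 xg, taken up in 700 µl of PBS, and made into QIAseq miRNA libraries from 1 ng of RNA each. The deposited values are whole-number counts per name made by the authors. The submitters' processing notes name hg19, a human build, and version 2.20.0.422 of bcl2fastq. The sources used here do not give the aligner or the counter, nor whether molecular identifiers were collapsed, so the counts may include amplified copies. All sample columns of the table were mapped (0 left out). Of the 1105 names, 4 rows share 2 names (miR-377-5p and miR-409-3p) and were kept apart.

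EV libraries were compared by the quasi-likelihood test of edgeR 4.0.16 (R 4.3.3), scaled by TMM, after filterByExpr at a minimum count of 10. p-values were adjusted by Benjamini-Hochberg (threshold 0.05), and the fit held only the 8 EV libraries and no block. The method was tested on simulated data. Alternatives used DESeq2 1.42.0, limma 3.58.1 with voom, other factors, filters, library subsets and the letter as a block. Within-letter differences used TMM-scaled CPM on a log2 scale (prior count 2) for names averaging at least 100 CPM. Whole-library measures were compared by exact permutation (scipy 1.17.1). The change in EVs minus that in serum was an interaction in 1 edgeR fit over 16 libraries. Shares are percent of the library total over all names.

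Named were the 20 names with the largest mean share, the 10 with the smallest edgeR p in each direction, names not overlapping on both scales, the 8 with the largest shared within-letter difference in each direction, and the 4 most abundant members of each list. Other separated names were chosen after their values were seen. The members and lists were chosen with earlier results of these data known. The letters are read as animals: deviations from the group means correlated between the times for D (r = 0.67) and E (r = 0.32), across names; D after surgery correlated as strongly with C before surgery (r = 0.68), and E after surgery more with A (r = 0.42) and B (r = 0.33) before surgery than with E, so the data do not show the pairing. Nothing states that libraries of 1 group came from separate animals other than the letters. No 2 EV libraries matched within sampling noise (chi-square per degree of freedom at least 22.0).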

Additional observations from a re-analysis of the deposited data

Results flagged for a closer look

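In 11 of 47 groups of values looked at, 1 library stood far from the others of its time. All were among the 5 libraries before surgery, since the 3 after surgery are too few for this check. Chance alone flags about 1 in 20 groups. The groups share names, as miR-486-5p and miR-451a are also red-cell names. The 11 flags are therefore not independent, and their number cannot be set against that rate. Library C before surgery stood high for miR-486-5p (31.5% of counts, against 7.59 to 10.7% in the others), miR-451a (4.51%, against 0.169 to 1.08%), the red-cell names together (57.5%, against 16.1 to 25.5%) and the miR-17 to miR-92 names (4.18%, against 2.09 to 2.68%). Library D before surgery stood high for platelet names (7.54%, against 2.53 to 3.96%), myeloid names (6.48%, against 1.46 to 2.33%), lymphoid names (3.49%, against 1.07 to 1.51%) and the miR-23/24/27 names (3.37%, against 1.03 to 1.64%). Library E before surgery stood high for miR-122-5p (7.97%, against 0.0899 to 2.25%) and for miR-6090, a name that can match ribosomal RNA fragments (2.59%, against 0.425 to 0.937%). Library B before surgery stood high for miR-1915-3p (15.2%, against 0.688 to 2.76%). What sets these libraries apart was not tested.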

How the results depend on the processing

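No alternative called a name at an adjusted p under 0.05 in EVs. The 15 names at an unadjusted p under 0.05 became 38 with DESeq2, 7 with a minimum count of 50, 28 with all 16 libraries in 1 fit, 24 among names above 0 in all 8 libraries, 36 in the 5 libraries with shared zeros, and 10 to 37 without single libraries (37 without D after surgery, 31 without E after surgery, 24 without C before surgery). With the letter as a replicate block there were 16, of which 6 were among the 15. Chosen after seeing the data, the library set as a term gave 26, and the other 3 libraries alone gave 101 (smallest adjusted p 0.162). Signs were followed for 33 names, those named for a small p, for separation or for a shared within-letter difference. The names chosen only for abundance or as list members were not followed, and some of these had fold changes near 0. The 33 were chosen for their differences in these same libraries, so a kept sign is partly built in. Of the 33, 26 kept their sign in every alternative, and 671 of 687 values kept it. Those that did not were miR-4280 (-0.89 with limma-voom, -6.74 in the other 3 libraries), miR-1915-3p (-0.26 in the 5 libraries) and miR-4317 (-0.16 with limma-voom, -1.46 with the replicate block, -0.086 after thinning, -0.87 in the other 3 libraries); without single libraries, miR-3154 ran between -0.061 and 2.86, miR-4488 between -0.69 and 1.97, miR-196b-3p between -0.44 and 2.51, miR-486-3p between -0.67 and 1.63, and miR-4317 between -0.81 and 0.82. The difference in total counts ran between -86171 and 118398. The EV change minus the serum change called 3 names with DESeq2 and 0 in the other alternatives. Within the letters, library totals gave 4 names higher and 165 lower in both and 42 opposite, and a mean of at least 500 CPM gave 2 lower and 19 opposite. Names not overlapping in shares numbered 0 to 10 (higher) and 17 to 88 (lower) without single libraries, and in TMM-scaled CPM 11 to 40 (higher) and 11 to 35 (lower); a minimum count of 50 gave 5 lower in shares, 5 higher and 3 lower in TMM-scaled CPM. Fewer libraries make separation easier by construction; the other causes were not tested. Names with few counts are limited by depth: the smallest total, 65537, makes 1 count 0.00153%.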
